A study of Homo sapiens with 33 samples.

Results

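The BCL2 family is described here by 10 of its genes: the survival genes BCL2A1, BCL2, BCL2L1 and MCL1, the effectors BAX and BAK1, and the BH3-only genes BCL2L11 (BIM), BBC3 (PUMA), PMAIP1 (NOXA) and BID. The members are the probe sets, groups of short probes that read 1 transcript, whose platform annotation carries the symbol of 1 of these genes. In all, 22 of the 22215 probe sets of the array carried such a symbol alone, and they stood for 9 of the 10 genes. The only probe set listed for BBC3 also carried MIR3190 and MIR3191, so BBC3 has no value here.

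Messenger RNA was measured on 33 Affymetrix HG-U133A arrays, in 11 groups of 3. The cells were TS, which is a Sup-M2 subclone, and Su-DHL1, both established human lines of ALK-positive anaplastic large cell lymphoma (ALCL), in which the kinase ALK is active. In 7 groups the cells carried a lentiviral repressor that doxycycline relieves and a lentiviral short hairpin RNA (shRNA), uninduced groups included, and had been sorted by fluorescence and expanded. Hairpin A5 is directed at ALK, and A5M is its mutated control. TS cells carrying A5 were taken after 84 h and after 72 h, Su-DHL1 cells carrying A5 after 72 h, each either induced (doxycycline at 1 microg/ml) or uninduced. The seventh group was induced TS cells carrying A5M, taken after 84 h. No uninduced A5M group and no A5M group in Su-DHL1 cells were among the samples. In the other 4 groups TS cells received A1, A2, A3 (300 nM each) or no compound (U), and RNA was taken after 6 h. Whether these TS cells carried the vectors is not stated. The design text calls A2 and A3 pyrrolocarbazole ALK inhibitors, A1 a mock compound and U a control diluent, whereas the sample labels call A1 an ALK inhibitor and U untreated. A1 is used here as the control. Nothing in the labels says that replicates came from separate cultures, so p-values measure only how far these samples spread, which may be technical.

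Proteins of the family decide at the outer membrane of the mitochondrion whether a cell survives. BAX and BAK1 form pores that release cytochrome c and so start the caspases, the survival proteins bind and restrain them, and the BH3-only proteins block the survival proteins or activate the effectors. BCL2A1, also called BFL-1, is known as a short-lived survival protein of blood cells whose gene is induced by NF-kB and other stimulus-responsive factors.

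The promoters of BCL2A1 and BAX are shown because BCL2A1 fell in each hairpin and compound setting and BAX rose in each hairpin setting by both of its probe sets. Each line gives the 250 bases before a transcription start, 5′ to 3′ on the strand of the gene, from RefSeq on GRCh38.p14. The BCL2A1 window lies at chr15:79971197-79971446 on the minus strand, and the BAX window at chr19:48954625-48954874 on the plus strand. Capitals mark matches to the motifs searched.
BCL2A1: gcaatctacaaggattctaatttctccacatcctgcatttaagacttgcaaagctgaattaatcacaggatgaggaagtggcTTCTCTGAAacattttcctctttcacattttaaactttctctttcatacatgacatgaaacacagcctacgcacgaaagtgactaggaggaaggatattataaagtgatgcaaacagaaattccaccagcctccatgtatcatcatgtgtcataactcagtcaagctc
BAX: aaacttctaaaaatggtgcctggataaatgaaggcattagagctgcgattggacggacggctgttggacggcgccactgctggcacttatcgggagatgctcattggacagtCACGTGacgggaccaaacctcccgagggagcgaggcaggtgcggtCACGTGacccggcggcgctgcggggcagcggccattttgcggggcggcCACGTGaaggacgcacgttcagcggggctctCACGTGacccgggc
The motifs were searched on both strands. They were TTCNNNGAA (STAT), TGACTCA (AP-1), TTGCNNAA (C/EBP), GTAAACA (FOXO), CACGTG (E-box, bound by MYC among others) and the NF-kB consensus. The BCL2A1 window held 1 STAT match, from 168 to 160 bases before the start, a motif with a match in 6.57% of the 35116 promoter windows of the table. The BAX window held 4 E-box matches, the farthest starting 138 and the nearest 14 bases before the start. At least 1 E-box match was found in 6.34% of all windows and at least 4 in 5 windows (0.0142%). The cut of 4 is the count found in the BAX window, itself 1 of the 5, so this share is no test. In the 14 windows of the 9 members with an entry, the only other matches were FOXO in BCL2L11 (2.98% of all windows), AP-1 (4.2%) and an E-box in BBC3, and an E-box in 2 overlapping BID windows, which is the same site in both. MCL1 had no entry. A match is a run of letters and not a bound site.

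Signal is the deposited MAS5 intensity, which estimates the abundance of a transcript on a linear scale. It is not comparable between probe sets, so levels are set side by side only within a probe set. Fold changes are on the scale of log2(signal + 11) from limma models. A probe set is called at a Benjamini-Hochberg adjusted p below 0.05 over all probe sets tested. Of the 22 member probe sets, 17 passed the filter on low values and stood for 8 genes. BCL2L11 was not among them. Its probe set 208536_s_at read between 0.6 and 13.2 on the 33 arrays and 222343_at between 5.7 and 39.1, and without the filter neither was called in any comparison. Further probe sets of BCL2 (203684_s_at and 207005_s_at) and BCL2L1 (206665_s_at) also fell short. Where a gene has several, the probe set that stands for it is that with the highest mean among those that passed.

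Array trimmed means lay between 200.063 and 200.078, and replicates correlated at 0.969 to 0.985. The number of arrays, 3 in each group, limits the precision. ALK signal checked the hairpin labels: it was 248 ± 44.2 (SD, n = 3) induced against 2039 ± 97.2 uninduced in TS cells at 84 h, 330.2 ± 52.4 against 1823 ± 19.1 at 72 h, and 637 ± 12.3 against 2966 ± 219 in Su-DHL1 cells. Of 8 ALCL markers, 7 were at or above the 40th percentile on all 33 arrays and CD2 on 18. Of 5 B-cell markers CD79B reached it on 0 arrays, PAX5, MS4A1 and CD79A on 7 to 11 and CD22 on 32. Of 6 myeloid markers CD14 and LYZ reached it on 0, MPO on 8, FCGR3B on 20 and CSF1R and ITGAM on 33. Of 6 epithelial and stromal markers EPCAM and CDH1 reached it on 0, COL3A1 on 10, KRT18 on 25, KRT8 on 26 and COL1A1 on 33. The summed signal of 6 myeloid markers moved with the groups, at 488 to 527 induced against 238 to 328 uninduced in TS cells at 84 h and 164 to 169 with A2 against 224 to 346 with A1. Such a sum is led by its brightest probe set. CSF1R alone read 346 against 148 and 64.1 against 116. The others moved less: ITGAM read 63.8 against 59.4 and 46.7 against 69.9, FCGR3B 53.7 against 41.0 and 26.8 against 43, and MPO 33.2 against 25.7 and 24.2 against 34.7. The part of these genes in the results was not tested.

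BCL2A1 fell in every comparison of ALK hairpin or inhibitor with its control, 2.44-fold to 3.07-fold with the hairpin and 7.02-fold to 8.20-fold with the compounds. The study picked this gene from such samples, so its direction is not independent evidence. In TS cells at 84 h the signal of 205681_at was 749.8, 606 and 529 in the induced replicates 1, 2 and 3, against 2030.4, 1855 and 1908 uninduced and 1505, 1727 and 1389 with the control hairpin. At 72 h it was 704, 807 and 748 induced against 1903, 1838 and 1806 uninduced. In Su-DHL1 cells it was 643, 869 and 689 induced against 2009, 2000.4 and 1937 uninduced. In each of the 3 settings every induced array lay below every control array. Such separation of groups of 3 was found for 43.7% of all probe sets at 84 h, 46.5% against A5M, 47.3% at 72 h and 37.1% in Su-DHL1 cells.

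On the log2 scale BCL2A1 changed by -1.62 ± 0.11 (SE, 95% confidence interval -1.85 to -1.38, limma adjusted p = 8.61e-11) at 84 h. Against A5M the change was -1.29 ± 0.11 (limma adjusted p = 3.6e-09), at 72 h -1.29 ± 0.11 (6.68e-09), and in Su-DHL1 cells -1.43 ± 0.11 (3.25e-09). The comparisons with uninduced A5 and with A5M at 84 h share the induced arrays. Averaged over the 3 settings the change was -1.44 ± 0.07, which placed BCL2A1 102nd from the lowest of 9101 genes, and in Su-DHL1 cells alone it was 34th. The responses of the 2 lines differed by -0.15 (interval -0.48 to 0.19) and those of the 2 times by -0.33 (interval -0.67 to 0.00), neither called. A5M cells read 79.8% of the uninduced signal (1541 ± 172 against 1931 ± 89.9), a difference that was not called (-0.33, limma adjusted p = 0.105). In bulk samples, fewer cells of a type and less RNA per cell cannot be told apart.

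After 6 h with A2, BCL2A1 read 110, 127 and 79.4, and with A3 98.4, 142 and 82.4. With A1 it read 1146, 744 and 939, and in U cells 672, 934 and 827. Every array with A2 or A3 lay below every control array, and the means with A2 and A3 were 11.2% and 11.4% of that with A1. Groups lay apart in this way for 43.8% (A2) and 41.9% (A3) of all probe sets against A1, and for 46.2% and 43.8% against U. The log2 changes against A1 were -3.04 ± 0.20 (interval -3.46 to -2.61, limma adjusted p = 9.41e-09) with A2 and -3.02 ± 0.20 (limma adjusted p = 1.01e-08) with A3. They placed BCL2A1 15th and 16th from the lowest of 8594 genes. Against U they were -2.83 and -2.81. A2 and A3, which share the controls, differed by 0.02 (interval -0.41 to 0.45), and A1 and U by 0.21 (interval -0.22 to 0.63), neither called.

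The 11 groups fell into 4 levels of BCL2A1. The 3 uninduced groups (means 1982, 1931 and 1849) overlapped from each neighbour in the order to the next, and below them stood A5M (1541) and then A1 (943), each apart from the group above it. A1, U (811), and the induced groups at 72 h in TS (753) and Su-DHL1 cells (734) and at 84 h in TS cells (628) overlapped from neighbour to neighbour. A3 (108) and A2 (105) lay below all others and overlapped each other. This order over both experiments describes signals and was not tested, since the experiments were fitted apart.

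**Figure D1:**
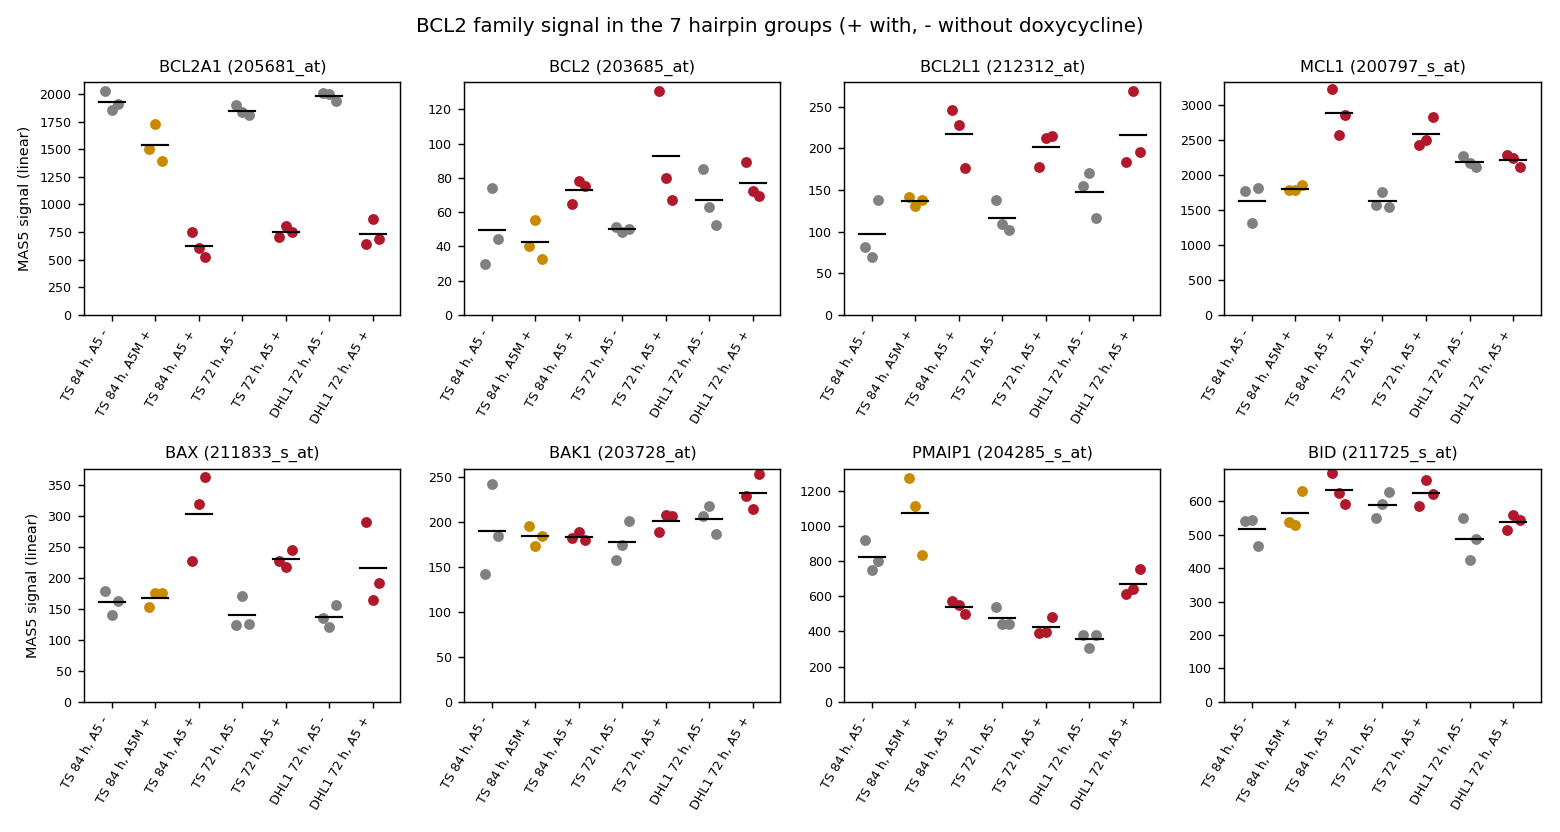
MAS5 signal (linear scale) of the standing probe set of each of 8 BCL2 family genes in the 7 hairpin groups; each point is 1 array, bars mark group means. BCL2A1 is lower in all induced A5 arrays than in any uninduced or A5M array, while PMAIP1 has its 3 highest Su-DHL1 values in the induced arrays and, in TS cells at 84 h, its lowest values there.

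The other survival genes did not follow BCL2A1 under the hairpin. BCL2L1, which encodes the survival protein BCL-XL, and MCL1, a short-lived survival protein, rose in TS cells at both times. BCL2, the survival protein that gives the family its name, rose at 72 h and against A5M with weaker support. BCL2L1 by 212312_at read 246, 228 and 177 induced against 82.0, 69.9 and 138 uninduced at 84 h, without overlap, a log2 change of 1.12 ± 0.19 (interval 0.72 to 1.52, limma adjusted p = 6.13e-05). At 72 h it read 178, 212 and 214 against 138, 109 and 103, a change of 0.74 ± 0.19 (limma adjusted p = 0.00476), and it rose against A5M by 0.61 (0.0138). The call against A5M was lost without induced replicate 1 (0.52, limma adjusted p = 0.067). In Su-DHL1 cells it read 184, 269 and 195 against 155, 170.4 and 117, which did not overlap but was not called (0.52 ± 0.19, limma adjusted p = 0.0602), and it was called without uninduced replicate 2 (0.62, 0.0499). A5M cells, at 141, 131 and 138, overlapped the uninduced group, and the difference of 0.51 from uninduced A5 was not called (limma adjusted p = 0.149) but was called without uninduced replicate 3 (0.77, 0.015). The second BCL2L1 probe set, 215037_s_at, was not called in any of these comparisons, with changes of 0.57 at 84 h (limma adjusted p = 0.0552), 0.32 at 72 h and 0.03 in Su-DHL1 cells.

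MCL1 was read by 5 probe sets that passed the filter. By 200797_s_at it read 3224, 2565 and 2853 induced against 1767, 1313 and 1819 uninduced at 84 h, and 2429.6, 2501 and 2818 against 1569.5, 1756 and 1537 at 72 h, all without overlap. The log2 changes were 0.82 ± 0.11 (limma adjusted p = 1.06e-06) and 0.67 ± 0.11 (2.6e-05), and against A5M 0.67 ± 0.11 (1.73e-05). Of the other 4 probe sets, 3 were also called higher at 84 h (0.56 to 1.19) and 3 at 72 h (0.84 to 1.15). Of these, 200796_s_at lay below the 40th percentile in all uninduced TS arrays, so that it passed the filter through other groups. Its 84 h call was lost without induced replicate 3 or uninduced replicate 1 (0.96 and 1.02), that of 214057_at without induced replicate 3 or uninduced replicate 2 (0.49 and 0.35), and its 72 h call without induced replicate 2 or 3 or uninduced replicate 1 or 3 (0.88 to 1.04), with limma adjusted p up to 0.128. In Su-DHL1 cells none of the 5 was called: 200797_s_at read 2281, 2246 and 2116 induced against 2264, 2165 and 2109.5 uninduced, a change of 0.02 (interval -0.20 to 0.24). The uninduced Su-DHL1 level was already higher than that of uninduced TS cells, at 2179 ± 78.0 against 1621 ± 118 (0.43 ± 0.11, limma adjusted p = 0.0051).

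BCL2 by 203685_at was dim, at 72.8 ± 7.30 induced against 49.4 ± 22.5 uninduced at 84 h (0.54 ± 0.25, limma adjusted p = 0.0956). At 72 h it was 92.7 ± 33.7 against 50.1 ± 1.37, called at 0.72 ± 0.25 (limma adjusted p = 0.0295), and against A5M 0.66 ± 0.25 (0.0374). Without induced replicate 1 the 72 h change was 0.47 (limma adjusted p = 0.21), and leaving out any uninduced replicate at 72 h, or induced replicate 2 or 3 or A5M replicate 1 or 3 at 84 h, also ended a call. At 84 h it was called against uninduced A5 without uninduced replicate 2 (0.82, limma adjusted p = 0.0123). In Su-DHL1 cells the change was 0.19 (interval -0.32 to 0.70). The second probe set, 207004_at, was not called in any comparison, but was at 84 h without uninduced replicate 1 (1.32, limma adjusted p = 0.00462).

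The effector BAX rose in each hairpin setting by both of its probe sets, and BAK1, the other effector, was not called in any comparison. By 211833_s_at BAX read 228, 319 and 363 induced against 179.5, 139 and 162 uninduced at 84 h, a log2 change of 0.86 ± 0.18 (limma adjusted p = 0.000505), and 0.79 ± 0.18 (0.00098) against A5M. At 72 h it read 228, 218 and 244 against 123, 170.0 and 126 (0.69 ± 0.18, limma adjusted p = 0.00457). In Su-DHL1 cells it read 291, 164 and 192 against 135, 120.1 and 156 (0.58 ± 0.18, limma adjusted p = 0.0219). None of these pairs of groups overlapped. The Su-DHL1 change by this probe set rested on few arrays: it was 0.36 (limma adjusted p = 0.183) without induced replicate 1, and the call was also lost without uninduced replicate 1 or 2. By 208478_s_at the changes were 0.94, 0.57 and 0.72 in the same order, and the Su-DHL1 change kept its call (0.72 ± 0.16, limma adjusted p = 0.00168). BAK1 read 182, 188 and 179 induced against 142, 242 and 184.5 uninduced at 84 h, a change of -0.02 (interval -0.30 to 0.27), and averaged over the 3 settings 0.11 (interval -0.05 to 0.28). Without uninduced replicate 2 of the 84 h group that average was called (0.17, limma adjusted p = 0.0451).

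PMAIP1, which encodes the BH3-only protein NOXA that binds MCL1 and BCL2A1, rose in Su-DHL1 cells at 72 h by both of its probe sets and fell in TS cells at 84 h, by both against A5M and by 1 of 2 against uninduced A5. In Su-DHL1 cells 204285_s_at read 615, 639.5 and 755 induced against 381, 304 and 382 uninduced, without overlap, a log2 change of 0.89 ± 0.14 (interval 0.61 to 1.18, limma adjusted p = 4.54e-05). In TS cells at 84 h it read 572.5, 549 and 499 induced against 922, 749.6 and 798.5 uninduced and 1276, 1114 and 835 with A5M. It fell against both, by -0.60 ± 0.14 (limma adjusted p = 0.00138) and by -0.96 ± 0.14 (5.19e-06). A5M lay above uninduced A5 by 0.36 (limma adjusted p = 0.146), and by 0.54 with 204286_s_at (0.0902), neither called. The uninduced TS mean of 204285_s_at was 823 at 84 h and 475 at 72 h, and the induced mean at 84 h was 540. The difference between the uninduced times was not tested. In TS cells at 72 h 204285_s_at read 389.9, 395 and 485 against 542, 444 and 441, which overlapped and was not called (-0.16, interval -0.45 to 0.12). The difference between the responses of the 2 lines at 72 h was 1.06 ± 0.20 (interval 0.65 to 1.46, limma adjusted p = 0.00246), 82nd from the highest of 9101 genes. The second probe set, 204286_s_at, changed in TS cells at 84 h by -0.42 against uninduced A5, not called (limma adjusted p = 0.0725), and by -0.96 against A5M (0.000143), and at 72 h by -0.32, not called (0.203). It gave 0.76 ± 0.18 in Su-DHL1 cells (limma adjusted p = 0.0036) and a difference between lines of 1.08 ± 0.26 (0.019). That second difference lost its call without induced or uninduced replicate 3 in Su-DHL1 cells or without induced replicate 1 or uninduced replicate 2 in TS cells (0.89 to 0.99, limma adjusted p up to 0.071).

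BID, which encodes the BH3-only protein that caspase-8 cleaves, rose in TS cells by 204493_at. It read 237, 259 and 228 induced against 150.2, 114 and 114 uninduced at 84 h (0.89 ± 0.14, limma adjusted p = 1.49e-05) and 237, 236 and 213 against 119, 129.8 and 128 at 72 h (0.81 ± 0.14, 6.62e-05). The induced arrays lay above all uninduced arrays at both times. In Su-DHL1 cells the change was 0.16 (interval -0.13 to 0.44). The other BID probe set, 211725_s_at, gave only 0.29 ± 0.10 at 84 h (limma adjusted p = 0.0309) and 0.08 at 72 h, so that the probe sets differ in size. The 84 h call of 211725_s_at was lost without induced replicate 1 or 2 or uninduced replicate 3 (0.22 to 0.30, limma adjusted p up to 0.145).

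**Figure D2:**
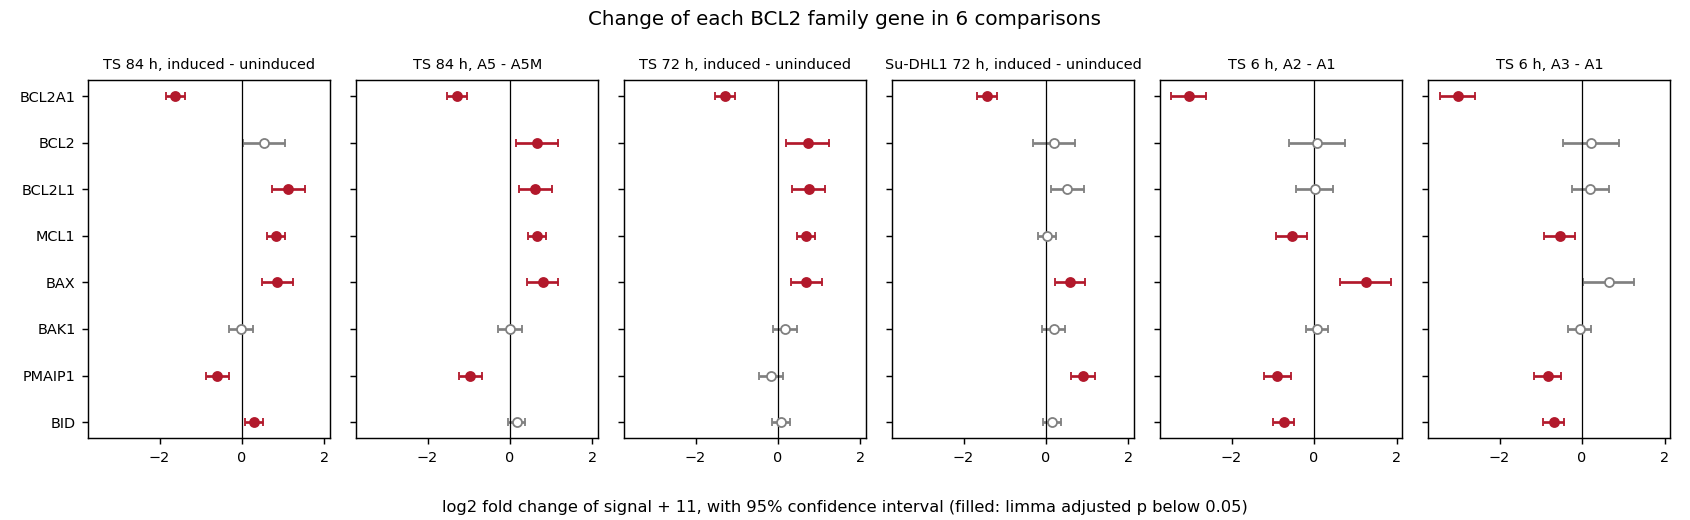
Log2 fold changes of signal + 11 of the 8 genes by standing probe set, with 95% confidence intervals, in 4 hairpin and 2 compound comparisons; filled points are called by limma. BCL2A1 is below 0 in all 6 panels, BCL2L1 is called in the TS hairpin panels only, and MCL1 lies above 0 in the TS hairpin panels and below 0 in both compound panels.

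The calls were set beside those over all 15345 probe sets. At 84 h, 9 of the 17 member probe sets were called higher and 2 lower against uninduced A5, where 37.6% of all probe sets were called (20.6% higher, 17% lower). Against A5M 9 were higher and 3 lower, beside 39.6% of all (21.9% higher, 17.6% lower). At 72 h 9 were higher and 1 lower in TS cells, beside 30.9% (17.4% and 13.5%), and 4 higher and 1 lower in Su-DHL1 cells, beside 21.6% (12.5% and 9.19%). Over the average of the 3 settings 10 were higher and 1 lower, beside 47.7% (27.8% and 19.9%). By standing probe set, 5 genes were higher and 1 lower of 8 in that average, beside 50.4% of all genes called, and the median change was 0.33, against 0.07 over all 9101 genes. The control hairpin against uninduced A5 gave none (limma, 5.5% of all probe sets called, 2.46% higher and 3.04% lower), with 4 member probe sets at an unadjusted p below 0.05. Up to 3 were called when 1 array was left out: MCL1 200796_s_at and both PMAIP1 probe sets without A5M replicate 3, BCL2L1 212312_at and PMAIP1 204286_s_at without uninduced replicate 3, and BCL2 207004_at without uninduced replicate 1. The 84 h against the 72 h response gave none (limma, 0.789% called, 0.209% and 0.58%), with 2 at an unadjusted p below 0.05, and 1 (MCL1 214056_at, -0.99) without induced 84 h replicate 1.

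A ratio that reflects how intact the RNA and its labelled copies are moved with induction in TS cells. The ratio of 3′ to 5′ signal of ACTB was 1.27 ± 0.02 induced against 1.54 ± 0.05 uninduced and 1.52 ± 0.08 with A5M at 84 h, and 1.32 ± 0.05 against 1.59 ± 0.11 at 72 h. In Su-DHL1 cells it was 1.36 ± 0.08 against 1.39 ± 0.03. With this ratio as a covariate, 5 of the 11 member calls at 84 h remained: BCL2A1 (-1.36), BCL2L1 212312_at (1.00), MCL1 200797_s_at (0.73) and 200798_x_at (0.93), and BID 204493_at (0.81). BAX did not keep its calls in TS cells (0.37, limma adjusted p = 0.437, by 211833_s_at and 0.60, limma adjusted p = 0.122, by 208478_s_at at 84 h), nor did PMAIP1 204285_s_at (-0.48, limma adjusted p = 0.197). Calls over all probe sets fell too, from 37.6% to 18.9%. In Su-DHL1 cells all 5 member calls remained, BAX included (0.52, limma adjusted p = 0.0327, by 211833_s_at). BCL2L1 was called at 84 h but not at 72 h (0.62, limma adjusted p = 0.269) or against A5M (0.50, limma adjusted p = 0.305), and BCL2 kept no call. The calls of PMAIP1 against A5M remained (-0.85 and -0.98). In the same fit A5M lay above uninduced A5 by 0.37 and 0.54, neither called. Since the ratio differs between the groups, its part and that of the hairpin cannot be told apart in TS cells.

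The 2 lines were compared directly. Of the 17 member probe sets, 4 differed in response at 72 h, where 2.72% of all probe sets did (1.52% higher, 1.21% lower): MCL1 200797_s_at (-0.65 ± 0.15, limma adjusted p = 0.015) and 214056_at (-1.14 ± 0.23, limma adjusted p = 0.0056) responded less in Su-DHL1 cells, and both PMAIP1 probe sets more. The difference of MCL1 200797_s_at was -0.58 (limma adjusted p = 0.051) without induced 72 h replicate 3 of TS cells, and that of 200798_x_at (-0.70, limma adjusted p = 0.107) was called without induced Su-DHL1 replicate 3 (-0.86, 0.0372). None of the 4 was called with the ACTB ratio as a covariate (PMAIP1 204285_s_at 0.96, limma adjusted p = 0.093, and MCL1 200797_s_at -0.57, limma adjusted p = 0.251). BID 204493_at was not called (-0.65, limma adjusted p = 0.0773). With only the groups compared it was (limma adjusted p = 0.0222), as was MCL1 200798_x_at (0.0285). BCL2A1, BAX and BAK1 did not differ by test, with intervals of -0.48 to 0.19, -0.63 to 0.42 (by 211833_s_at) and -0.40 to 0.42. Without doxycycline, 5 member probe sets differed between the lines (19% of all probe sets, 9.55% higher and 9.44% lower): 3 MCL1 probe sets were higher in Su-DHL1 cells (0.43 to 0.61) and both PMAIP1 probe sets lower (-0.41 and -0.52, limma adjusted p = 0.0415 and 0.0468). Leaving out 1 of the 6 arrays ended the calls of PMAIP1 204285_s_at (except without Su-DHL1 replicate 3), PMAIP1 204286_s_at (except without TS replicate 3) and MCL1 200798_x_at (except without Su-DHL1 replicate 1). It ended that of MCL1 214056_at without TS replicate 3 (0.46, limma adjusted p = 0.0795), and that of MCL1 200797_s_at held in all 6 fits.

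**Figure D3:**
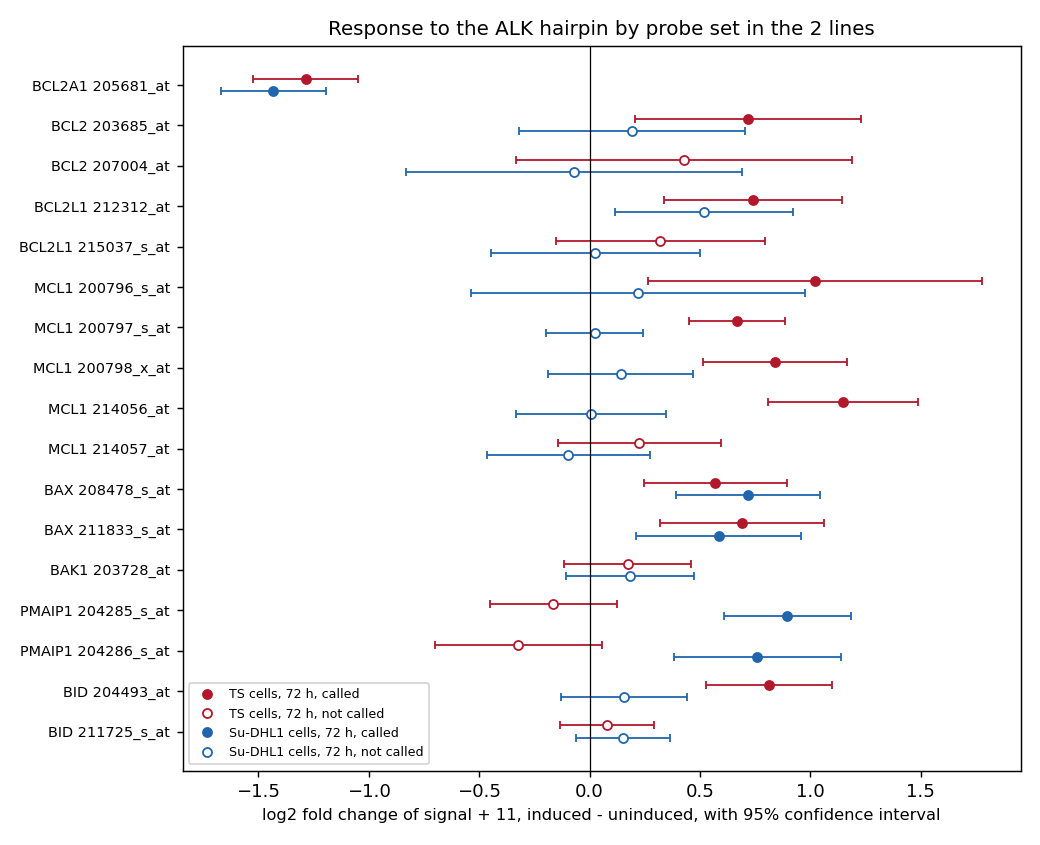
Log2 fold change of signal + 11, induced minus uninduced at 72 h, of the 17 member probe sets in TS (red) and Su-DHL1 cells (blue), with 95% confidence intervals; filled points are called by limma. The intervals of the 2 lines are apart for both PMAIP1 probe sets, for MCL1 200797_s_at, 200798_x_at and 214056_at and for BID 204493_at, and BCL2A1 and BAX are called in both lines. By the direct test the difference between lines was not called for MCL1 200798_x_at or BID 204493_at (limma adjusted p = 0.107 and 0.0773).

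After 6 h with the compounds, PMAIP1 and BID fell besides BCL2A1, and MCL1 was called lower against A1 but not against U. BCL2 and BCL2L1 were not called. BAX was called higher with A2 by 1 probe set and not by the other. The called one passed the filter mainly through the A2 arrays, so its call is no support for a rise. Against A1, 1 of the 17 probe sets was called higher and 9 lower with A2 (31.6% of all 14578 probe sets called, 18.3% higher and 13.3% lower), and 9 lower with A3 (31.2%, 17.8% and 13.4%). Against U, 1 was higher and 5 lower with A2 (33.9%, 19.8% and 14.1%) and 4 lower with A3 (32.5%, 18.8% and 13.8%). By standing probe set the medians over the 8 genes were -0.27 with A2 and -0.30 with A3 against A1, and 0.02 and 0.04 over all 8594 genes. A1 against U and A3 against A2 gave none (limma, 0.0412% of all probe sets called in each, 0.0274% higher and 0.0137% lower for A1 against U and 0.0206% and 0.0206% for A3 against A2), with 3 and 0 at an unadjusted p below 0.05. All compounds were given at the same dose and time.

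PMAIP1 by 204285_s_at read 518, 545 and 521 with A2 and 471, 649 and 547 with A3, against 1081, 824 and 1080.2 with A1 and 576, 867 and 727 in U cells. Against A1 the log2 changes were -0.89 ± 0.15 (limma adjusted p = 0.000286) and -0.83 ± 0.15 (0.000554). Against U they were -0.43 ± 0.15 (limma adjusted p = 0.0409), a call lost without any 1 of the A2 replicates or U replicate 2 or 3, and -0.37 (0.0799), which was called without A3 replicate 2 (-0.48, 0.0366) or U replicate 1 (-0.52, 0.0185). By 204286_s_at it read 86.1, 73.3 and 75.1 with A2 and 100.2, 71.5 and 113 with A3, against 228, 264 and 327 with A1, changes of -1.66 ± 0.20 (limma adjusted p = 7.81e-06) and -1.43 ± 0.20 (3.79e-05). It was below U as well, by -1.11 with A2 and -0.88 with A3, both called. A1 itself lay above U by 0.46 with 204285_s_at (limma adjusted p = 0.371) and by 0.55 with 204286_s_at (0.393), neither called.

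BID fell by both probe sets and against both controls. By 211725_s_at it read 266, 249.7 and 241 with A2 and 272, 284 and 230.5 with A3, against 399.6, 441.5 and 439 with A1 and 419, 492.5 and 513 in U cells. The groups did not overlap, and the changes against A1 were -0.73 ± 0.12 (limma adjusted p = 0.000186) and -0.68 ± 0.12 (0.000362). By 204493_at they were -0.87 ± 0.20 (limma adjusted p = 0.00364) and -0.98 ± 0.20 (0.00148). The direction in TS cells is thus down after 6 h with either compound and up by 204493_at after 72 h and 84 h of the hairpin. Those times and agents differ, and the difference was not tested.

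MCL1 by 200797_s_at read 1366, 1193 and 1154 with A2 and 1169, 1317 and 1236 with A3, against 1909, 1351 and 2289 with A1 and 1907, 1881 and 1244 in U cells. The controls spread widely: the A1 arrays overlapped those with A2 but not those with A3, and the U arrays overlapped both. The changes against A1 were -0.55 ± 0.18 (limma adjusted p = 0.0264) and -0.54 ± 0.18 (0.0283), and against U -0.41 in each (0.086 and 0.0921). Without A1 replicate 3 they were -0.38 (limma adjusted p = 0.144) and -0.37 (0.151). The calls were also lost without A1 replicate 1, A2 replicate 2 or 3, or A3 replicate 1 or 3, and without U replicate 3 both changes against U were called (-0.61 each, limma adjusted p = 0.0121 and 0.0134). Of the other 4 MCL1 probe sets, 3 were called lower against A1 with each compound (-0.41 to -0.54 with A2, -0.67 to -0.76 with A3), and their calls with A2 were lost without A1 replicate 2 or A2 replicate 1 for all 3, without any other A1 array or A2 replicate 2 for 214056_at and 214057_at, and without A2 replicate 3 for 214057_at. Those with A3 held in every fit without 1 array. A1 lay above U by 0.32 to 0.40 by these 3 probe sets, with no call.

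BAX was dim in these arrays. By 211833_s_at it read 68.2, 65.9 and 52.0 with A2, 50.8, 24.2 and 38.9 with A3, 19.7, 21.1 and 17.7 with A1 and 24.4, 19.3 and 53.3 in U cells. It reached the 40th percentile on all 3 A2 arrays, on 2 with A3, 1 in U cells and 0 with A1, so it passed the filter mainly through the group where it is high. The change with A2 was 1.25 ± 0.29 against A1 (limma adjusted p = 0.00347) and 0.83 ± 0.29 against U (0.0389), and the latter lost its call without any 1 of the A2 arrays or U replicate 1 or 2 (0.61 to 0.93). With A3 the change against A1 was 0.65 (interval 0.02 to 1.27, limma adjusted p = 0.109). By 208478_s_at neither compound was called (0.50, limma adjusted p = 0.0794, and 0.35, 0.237, against A1).

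BCL2L1 by 212312_at read 164 ± 41.6 with A2 and 188 ± 45.7 with A3, against 159.6 ± 18.5 with A1, changes of 0.01 (interval -0.43 to 0.46) and 0.20 (interval -0.24 to 0.64). BCL2 by 203685_at changed by 0.07 (interval -0.61 to 0.76) and 0.22 (interval -0.46 to 0.90). Its group means lay between 31.4 and 39.0 and single arrays between 14.7 and 54.9, and it reached the 40th percentile on 3 of the 12 arrays. BAK1 changed by 0.07 (interval -0.20 to 0.35) and -0.06 (interval -0.33 to 0.21). The ACTB ratio was lower here as well, at 1.05 ± 0.03 with A2 and 1.06 ± 0.15 with A3 against 1.33 ± 0.07 with A1 and 1.18 ± 0.12 in U cells. With it as a covariate 5 of the 10 calls of A2 against A1 remained: BCL2A1 (-3.18), both PMAIP1 probe sets (-1.01 and -1.32), BAX 211833_s_at (1.45) and BID 211725_s_at (-0.70). None of the MCL1 calls with A2 did. The BAX probe set passed the filter mainly through the A2 arrays, so its call is no support for a rise. Calls over all probe sets fell too, from 31.6% to 13.8%. Of the 9 calls of A3 against A1, 6 remained, beside a fall from 31.2% to 15.1% of all probe sets. Among those 6 was MCL1 200798_x_at (-0.92, limma adjusted p = 0.00832).

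**Figure D4:**
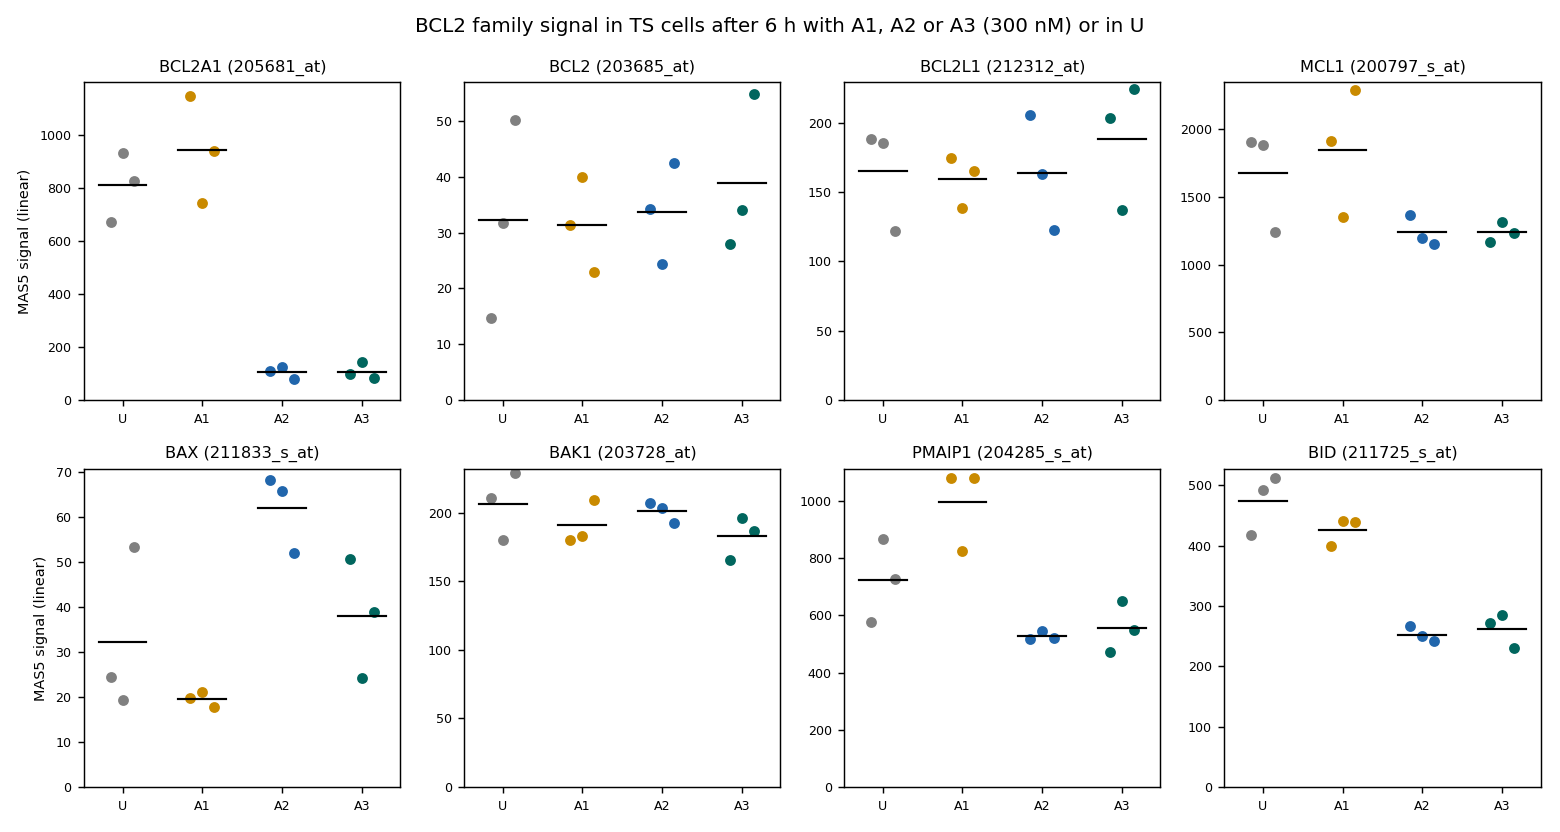
MAS5 signal (linear scale) of the standing probe set of each of 8 BCL2 family genes in TS cells after 6 h with U, A1, A2 or A3; each point is 1 array, bars mark group means. The A2 and A3 points lie between 79.4 and 142 for BCL2A1, against 672 to 1146 in the controls, and the BID points of A2 and A3 lie below all control points.

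Other genes of the pathway were taken from lists, each by 1 probe set. The counts of each list are to be read beside the share of all genes called, 50.4% in the average hairpin response and 32.8% with A2 against A1, and the called shares of the lists in the average lay near it. Of 8 other BCL2 family genes tested, 2 rose and 2 fell in the average hairpin response. BAD, a BH3-only gene, rose by 0.48 ± 0.08 (limma adjusted p = 1.24e-05) and BCL2L13 by 0.68 ± 0.09 (6.9e-07), while BNIP2 (-0.59) and BNIP1 (-0.19) fell. With A2 against A1, 3 rose and none fell: BAD (0.79), BNIP3L, a mitophagy receptor (0.73), and the survival gene BCL2L2 (0.62). Of 15 genes of the apoptosome, caspases and their inhibitors, 2 rose and 6 fell in the average hairpin response. BIRC5, which encodes survivin and is also a gene of dividing cells, fell furthest (-1.61 ± 0.09, limma adjusted p = 2.28e-13), followed by the protease gene HTRA2 (-0.53), PARP1 (-0.47) and DFFA, the inhibitor of an apoptotic nuclease (-0.38). The genes that rose, CASP6 (0.37) and CASP9 (0.23), are named after their values were seen. With A2 against A1, 5 of the 15 rose and 1 fell. BIRC5 rose (0.53 ± 0.14, limma adjusted p = 0.00606), as did CASP6 (0.98) and APAF1, the scaffold of the apoptosome (0.48), among others, whereas CYCS, cytochrome c, fell (-0.88). MKI67, a marker of dividing cells, read 108 induced against 621 uninduced in TS cells at 84 h and 1004 with A2 against 655 with A1.

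Of 10 death receptor genes, 4 rose in the average hairpin response and 1 fell. The receptors FAS (1.17 ± 0.11, limma adjusted p = 2.82e-09), TNFRSF1A (0.92) and TNFRSF10B (0.48) and the adaptor FADD (0.38) were higher, and the caspase-8 inhibitor CFLAR, named here after its value was seen, was lower (-0.29). With A2 against A1 none rose and 2 fell, CFLAR (-1.27 ± 0.12, limma adjusted p = 3.95e-07) and the ligand TNFSF10 or TRAIL (-1.72 ± 0.13, 2.95e-08). Of 14 transcription factors known to control members, 2 rose and 6 fell in the average hairpin response, and 2 rose and 4 fell with A2 against A1. MYC fell by -1.53 ± 0.05 and by -6.40 ± 0.23, CEBPB, which the study picked, by -0.68 and -1.51. E2F1 (-0.67) and STAT3 (-0.46) fell in the average response, and FOXO1 fell (-1.09) and JUN rose (1.00 ± 0.21, limma adjusted p = 0.0014) with A2. Named after their values were seen, FOXO3 (0.37) and NFKB1 (0.19) rose in the average response, and REL rose (0.64) and STAT3 fell (-0.66) with A2. The median change over a list was 0.08, -0.08, 0.28 and -0.06 in the average response for the 4 lists in this order, against 0.07 over all genes, and with A2 against A1 0.47, 0.19, -0.08 and -0.12, against 0.02.

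Genes whose mean log2 level over the 11 groups was most like that of a member were searched among 8479 genes, as a description over groups that share cells and experiments. For BCL2A1 they were the chemokine gene CCL20 (r = 0.990), NAMPT, an enzyme of NAD synthesis (0.988), and THUMPD2 (0.982), with r of 0.985, 0.952 and 0.971 over the 7 hairpin groups alone. For BID they were AIM2, a sensor of cytosolic DNA (0.973), IFNGR1, a chain of the interferon gamma receptor (0.972), and EMP1 (0.960), and over the hairpin groups alone r was lower, at 0.578, 0.779 and 0.484. For MCL1 the nearest was LMO2 (0.970), for BCL2L1 SLC29A3 (0.978), for BCL2 RB1 (0.966) and for BAX UQCRC2 (0.972, and 0.791 over the hairpin groups). The nearest to PMAIP1, CDC14B (0.872), and to BAK1, SLC61A1 (0.856), were less alike.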

How the data were processed

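The values are MAS5 signal as deposited, a linear intensity for each probe set. The authors computed it with MAS5, according to the submitters' processing notes (per the labels). MAS5 brings every array to 1 target level, as the trimmed means show, so total RNA per cell cannot be compared. Which version was used is not given in the sources used here. In all, the table held 22283 probe sets, of which 68 controls were left out. Platform annotation gave 19065 probe sets 1 symbol, 1043 several and 2107 none.

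No further scaling was applied, and tests used log2(signal + 11), where 11 is near the 20th percentile of the table. Probe sets that reached the 40th percentile of their array on fewer than 3 arrays of a fit were left out. This left 15345 probe sets (9101 genes) over the 21 hairpin arrays and 14578 (8594 genes) over the 12 compound arrays. Each set was fitted with limma 3.58.1 in R 4.3.3 (a mean per group, lmFit, eBayes with a mean-variance trend), with 14 and 8 residual degrees of freedom. Tests are two-sided, with Benjamini-Hochberg adjustment over all probe sets tested, for genes of the lists too. The procedure was tested on simulated data, but no outcome of that test is given here. A permutation test of 3 arrays against 3 cannot give a two-sided p below 0.1 and was not used. Figures were drawn with matplotlib 3.10.9.

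All members are named with each probe set. From each list up to 4 called genes with the largest change are named, for the average hairpin response and A2 against A1, and for each member the 3 genes most like it were sought. The members and lists were chosen with earlier results of these data known. Alternatives were pseudocounts of 1 and 32, no filter or the 60th percentile, quantile normalization, 1 probe set per gene, no trend, only the groups compared, the replicate number as a block, the ACTB ratio as a covariate, and leaving out each array. Promoters and their coordinates come from RefSeq (GRCh38.p14); the array files name no build. No protein sequences were used here.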

Additional observations from a re-analysis of the deposited data

Results flagged for a closer look

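The response to the ALK hairpin at 72 h differed between Su-DHL1 and TS cells by the interaction test for 4 of the 17 member probe sets (limma). The difference was called for 2.72% of all probe sets (1.52% higher, 1.21% lower). For PMAIP1 it was 1.06 (adjusted p = 0.00246) by 204285_s_at and 1.08 (adjusted p = 0.019) by 204286_s_at. All 3 induced Su-DHL1 arrays lay above all 3 uninduced ones by both probe sets, while in TS cells the groups overlapped. For MCL1 it was -0.65 (adjusted p = 0.015) by 200797_s_at and -1.14 (adjusted p = 0.0056) by 214056_at. All 3 induced TS arrays lay above the uninduced ones by both probe sets, while in Su-DHL1 cells the groups overlapped. Groups of 3 lay apart, in either direction, for 37.1% of all probe sets in Su-DHL1 cells and 47.3% in TS cells at 72 h. The ACTB ratio fell with induction in TS cells and hardly in Su-DHL1 cells, and the part of this difference in the 4 results was not tested apart from the fit with that ratio, in which none was called, beside 0.867% of all probe sets.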

How the results depend on the processing

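No called value changed sign under any alternative that was run. Values that were not called did: with the ACTB ratio as a covariate BCL2 207004_at went from 0.83 to -0.10 at 84 h and from 0.39 to -0.26 in the average, and BAK1 from 0.07 to -0.18 for A2 against A1. BCL2A1 was called by limma in all 16 alternatives of each comparison of the ALK hairpin, A2 or A3 with a control, and in all 28 of the average. Several counts of called member probe sets moved by over 1.5 times. With 1 probe set per gene, which leaves 8 probe sets by construction, they were 6 for TS cells at 84 h, 6 against A5M, 5 at 72 h, 3 in Su-DHL1 cells, 6 for the average, 2 for the difference between lines, 2 for the uninduced lines, 5 for A2 and 4 for A3 against A1, and 2 for A3 against U. In the same order, of all 9101 genes 3699, 3942, 3108, 2238, 4622, 263 and 1928 were called. With the compounds 2871, 2808 and 2893 of all 8594 genes were. With the ACTB ratio as a covariate the member counts were 5 at 84 h, 6 against A5M, 5 at 72 h, 6 for the average, 0 for the difference between lines, 0 for the uninduced lines and 5 for A2 against A1. Calls over all probe sets fell as well, in the same order to 18.9%, 23.4%, 13.8%, 24.3%, 0.867%, 10.2% and 13.8%. Without the covariate they were 37.6%, 39.6%, 30.9%, 47.7%, 2.72%, 19% and 31.6%. The count for the uninduced lines was 3 without the filter (2695 of all 22215 probe sets called) and 2 without the trend (2691 of all 15345), where the cause was not tested. Leaving out 1 array gave 0 to 1 for the 84 h against the 72 h response, 0 to 3 for A5M against uninduced A5 and 2 to 4 for the uninduced lines (5 with all arrays). It gave 7 to 8 for A2 against A1, where 10 were called with all arrays. For TS cells it gave 9 to 11 against A5M (12 with all arrays) and 8 to 9 at 72 h (10 with all arrays). In the other comparisons the range held the count with all arrays. Without 1 array, 1822 values of single probe sets kept their side of the threshold, 82 lost a call and 25 gained one. Without the filter 12 single calls were lost and 0 gained, and with quantile normalization 7 and 2. Without the trend it was 7 and 4, and with only the groups compared 5 and 4. BCL2 203685_at at 72 h in TS cells was among those lost without the filter and with quantile normalization. PMAIP1 204286_s_at in TS cells at 84 h, against uninduced A5, was among those gained with quantile normalization (-0.49) and with only the groups compared (-0.42).

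Same-numbered replicates did not deviate together (correlations of -0.198 to 0.105), so the numbers were not taken to pair samples. With the replicate number as a block, 11 member probe sets were called at 84 h, 12 against A5M, 10 at 72 h, 5 in Su-DHL1 cells, 8 for A2 and 9 for A3 against A1, and 4 single calls changed. These were MCL1 214056_at (adjusted p = 0.0551) and 214057_at (0.0518) for A2 against A1, MCL1 200798_x_at for A3 against U (0.0415) and PMAIP1 204286_s_at for the uninduced lines (0.0604). Dim probe sets (BCL2, MCL1 200796_s_at, and BAX with the compounds) limit what can be said of these genes.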
